A study of Homo sapiens with 6 samples.

Results

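J-domain co-chaperones, the HSP40 family, were followed in renal carcinoma cells with and without a short hairpin RNA against one family member, DNAJC2. Members were the genes of the deposited count table whose symbol is DNAJA, DNAJB or DNAJC followed by a number, with DNAJC2 left out. They numbered 43 of 20532 genes, with 4 in class A, 12 in class B and 27 in class C. All 6 libraries came from ACHN, a human renal carcinoma cell line that the labels assign to clear cell renal cell carcinoma, and all cells carried a lentiviral short hairpin RNA. The shDNAJC2 group had 3 libraries from cells with a stable hairpin against DNAJC2, and the shCtrl group had 3 libraries from cells with a negative control hairpin. The design text calls the libraries biological replicates without naming separate transductions or clones, so p-values measure the spread between these libraries.

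A J-domain protein brings a client to an HSP70 chaperone and makes that HSP70 hydrolyse its ATP and close on the client. The contact depends on a histidine-proline-aspartate tripeptide in the J-domain. Class A members carry a zinc-finger-like region and a glycine- and phenylalanine-rich stretch beside the J-domain, class B members lack the zinc-finger-like region, and class C members share little but the J-domain. Class C members are often tied to 1 place or 1 client, such as a membrane, the clathrin coat or the ribosome. DNAJC2 itself belongs to class C and works with HSPA14 on nascent chains at the ribosome.

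The family label was checked on the coding sequences of GENCODE 29. In the longest coding transcript, 42 of the 43 members (97.7%) held an in-frame histidine-proline-aspartate codon run, spelled CAT or CAC, then CCN, then GAT or GAC, on the coding strand. The same run was found in 5.65% of the 19353 genes of the table with a coding transcript. The exception was DNAJB13, a protein of the sperm flagellum. The run and 9 bases to each side are shown for 11 members described below, chosen after their values were seen to cover both directions and several places of action, with the 9 codon bases in capitals.
DNAJA3: aagaagtatCACCCTGACacaaataag
DNAJB4: ctcaaatttCATCCGGACaagaacaaa
DNAJB5: ttgaagtacCACCCAGACaagaataaa
DNAJB9: atgaagtacCACCCTGACaaaaataag
DNAJB14: ttgaagtttCATCCAGACaaaaaccat
DNAJC4: aaagagctgCACCCAGACcgggaccct
DNAJC6: ctggtggtgCACCCAGATaaagctact
DNAJC19: cttttaaatCATCCTGACaaaggagga
DNAJC22: aaggtctggCACCCAGACcacaacctg
DNAJC28: aagcaatatCATCCTGACagtggctct
DNAJC30: tttctctacCACCCGGACcgcaactcc
In each of these the run occurred once. It began at codon 54 of 669 coding bases in DNAJB9, near the start, and at codon 305 of 1023 coding bases in DNAJC22 and codon 934 of 2910 in DNAJC6, near the end.

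Total counts were 17491462 to 24308609 in shDNAJC2 libraries and 22687843 to 25760291 in shCtrl libraries. Levels are CPM, read counts scaled to a common library size, after trimmed-mean (TMM) scaling. DNAJC2 was at 51.2, 50.4 and 38.5 CPM in shDNAJC2 1, 2 and 3 and at 76.7, 69.8 and 86.5 CPM in shCtrl 1, 2 and 3, without overlap (log2 fold change -0.74 ± 0.15, SE, adjusted p = 0.43 in edgeR, and an exact two-sided permutation p of 0.1, the smallest that 3 against 3 libraries allow). The library shCtrl 3 kept a control level of DNAJC2 but stood apart from the other controls: 15 ATF4 target genes, a readout of the integrated stress response, summed to 8084, 8454 and 5175 CPM in shDNAJC2 1, 2 and 3 and to 958, 960 and 9377 CPM in shCtrl 1, 2 and 3. For 74.6% of all 13988 genes tested, shCtrl 3 lay nearer to the shDNAJC2 mean than to the mean of shCtrl 1 and 2, and for the J-domain genes this was so for 26 of the 39 tested (66.7%). Results are therefore given with and without shCtrl 3. Of 11 renal epithelial markers 8 passed the low-count filter, with sums of 3241 to 4127 CPM in shDNAJC2 libraries and 3654 to 4674 CPM in shCtrl libraries. Of these, CA9 and CDH2 rose and CDH6 fell without shCtrl 3. CA9 was at 7.68 to 8.56 CPM in shDNAJC2 libraries and at 0.861, 1.30 and 8.83 CPM in shCtrl 1, 2 and 3, and CDH6 was at 22.8 to 42.8 CPM in shDNAJC2 libraries and at 123, 127 and 17.7 CPM in shCtrl 1, 2 and 3. PAX8 lay between 2.82 and 4.64 CPM over all 6 libraries, and PAX2 and LHX1 were at or near 0. All 8 fibroblast markers passed, with a summed level of 1143, 1187 and 1661 CPM in shDNAJC2 1, 2 and 3 and of 3705, 3733 and 1298 CPM in shCtrl 1, 2 and 3. COL1A1 was at 572, 623 and 1066 CPM in shDNAJC2 1, 2 and 3 and at 2796, 2785 and 695 CPM in shCtrl 1, 2 and 3. Without shCtrl 3, COL1A1, COL3A1 and PDGFRB fell, while DCN, LUM, PDGFRA, THY1 and FAP did not pass. Of 8 blood and immune markers 1 passed, with sums of 0.995 to 1.57 CPM in shDNAJC2 libraries and 1.02 to 2.26 CPM in shCtrl libraries. Of 6 endothelial markers 4 passed, CDH5 and EMCN had 0 counts, and the sums were 56.0 to 57.9 CPM in shDNAJC2 libraries and 57.8 to 72.3 CPM in shCtrl libraries. TEK made up most of these sums and fell without shCtrl 3, while KDR and PECAM1 rose by 2.85 and 1.46 on the log2 scale, with at most 3.86 CPM in any library. The part of these marker and stress genes in the results was not tested, and in bulk RNA fewer cells of a type and less RNA per cell cannot be told apart.

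The 43 members covered a wide range of abundance. DNAJB8 and DNAJC5G had 0 counts in all 6 libraries, which allows up to 3 counts a library, or 0.116 to 0.172 CPM. DNAJB13 lay between 0.157 and 0.344 CPM and DNAJC5B between 0 and 0.382 CPM. These 4 did not pass the low-count filter and were not tested, which left 39. Per kilobase of the longest annotated transcript, the mean over 6 libraries was highest for DNAJA1 (149 CPM per kb), DNAJB1 (94.3) and DNAJC8 (85.9). DNAJA1 and DNAJB1 are the main cytosolic partners of constitutive and heat-inducible HSP70, and DNAJC8 is found with the spliceosome. Next within each class stood DNAJA3 (32.3 CPM per kb), DNAJB11 (27.01) and DNAJC7 (41.7). The order below the top depends on the length taken. DNAJB6 stood at 21.2 CPM per kb of its longest transcript but at 105 per kb of its shortest principal one, which would put it first in class B. The plot of level per length shows this for each gene.

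**Figure D1:**
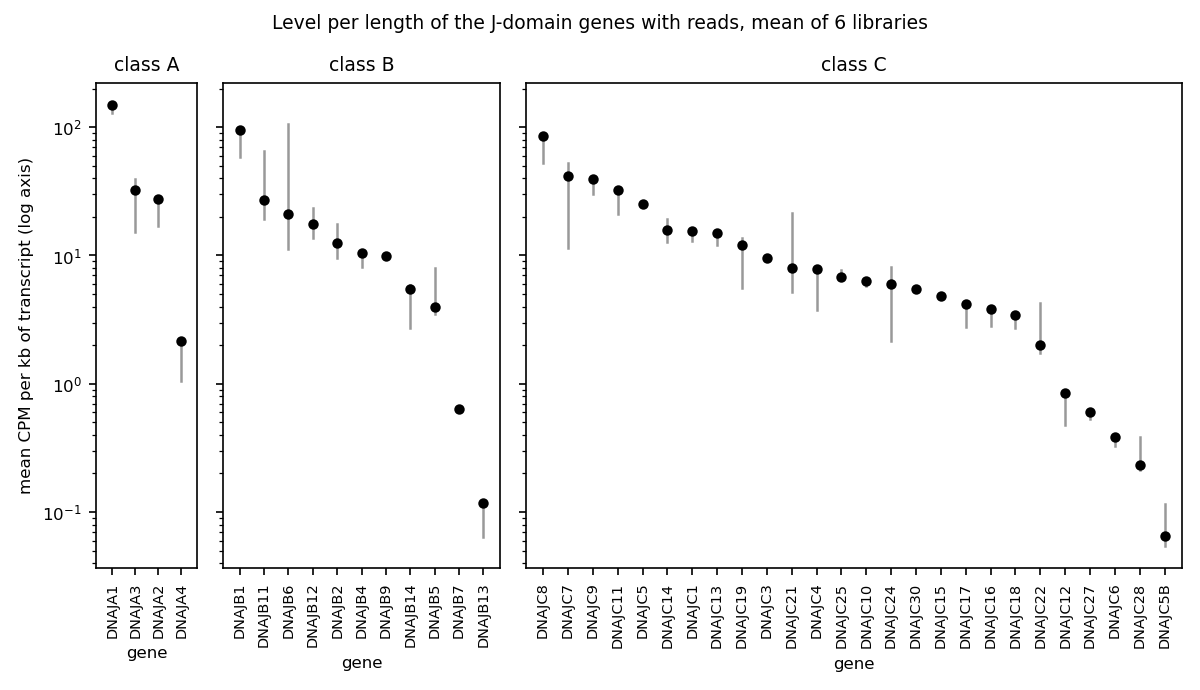
Mean level of the 41 J-domain genes with reads, as CPM per kilobase on a log axis, over all 6 libraries, by class and in falling order. Points use the longest annotated transcript of GENCODE 29, and grey lines span the values with the union of exons and with the shortest principal transcript. DNAJA1 is the highest point at 149 CPM per kb.

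Over all 6 libraries, no J-domain gene passed. edgeR's quasi-likelihood test called 0 higher and 0 lower at an adjusted p under 0.05 (0% of all genes in each direction). At an unadjusted p under 0.05 it gave 2 higher (DNAJB14 and DNAJC19) and 3 lower (DNAJC30, DNAJC4 and DNAJB5). Over all genes tested these shares were 4% and 7.33%. DESeq2 called 0 of the 41 members to which it gave an unadjusted p (3 higher and 3 lower unadjusted). It gave no adjusted p for DNAJC6, DNAJC22 and DNAJC28, so it could not call these. For limma-voom the count was 0 of 39 (2 higher and 2 lower unadjusted). Over all genes DESeq2 called 4 higher and 14 lower of 17477 with an unadjusted p, and limma-voom called 0 higher and 0 lower of 13988. Their unadjusted shares over all genes were not counted. For 7 members every shDNAJC2 library was above every shCtrl library, and for 2 every one was below, against 7.33% and 8.43% of all genes. These 9 are DNAJB14, DNAJC3, DNAJC9, DNAJC10, DNAJC15, DNAJC16 and DNAJC19 above, and DNAJC4 and DNAJC30 below. The median log2 fold change over the 39 was 0.09, against -0.02 over all genes tested. Base composition moved with the groups. Over all genes tested the median log2 fold change was 0.11 under 45% GC, -0.003 at 45 to 55% and -0.19 over 55%. For the members these medians were 0.21, 0.06 and -0.05. Of the 7 members above, 6 had a GC content under 45%, as had 21 of the 39 tested. The part of GC content in the members' values was not tested.

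Without shCtrl 3, 10 members rose (25.6% of 39, against 17.8% of all genes) and 5 fell (12.8%, against 17%) in edgeR's test at an adjusted p under 0.05. DNAJA3, DNAJB2, DNAJB4, DNAJB6, DNAJB9, DNAJB14, DNAJC6, DNAJC16, DNAJC19 and DNAJC25 rose, and DNAJB5, DNAJC17, DNAJC22, DNAJC28 and DNAJC30 fell. By class this was 1 higher of 4 in class A, 5 higher and 1 lower of 10 in class B, and 4 higher and 4 lower of 25 in class C. In 12 of the 15, shCtrl 3 lay nearer to the shDNAJC2 mean than to shCtrl 1 and 2, and in DNAJB14, DNAJC19 and DNAJC30 it lay nearer to the other controls. That library was left out with its values known, so these counts describe 3 libraries against 2.

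**Figure D2:**
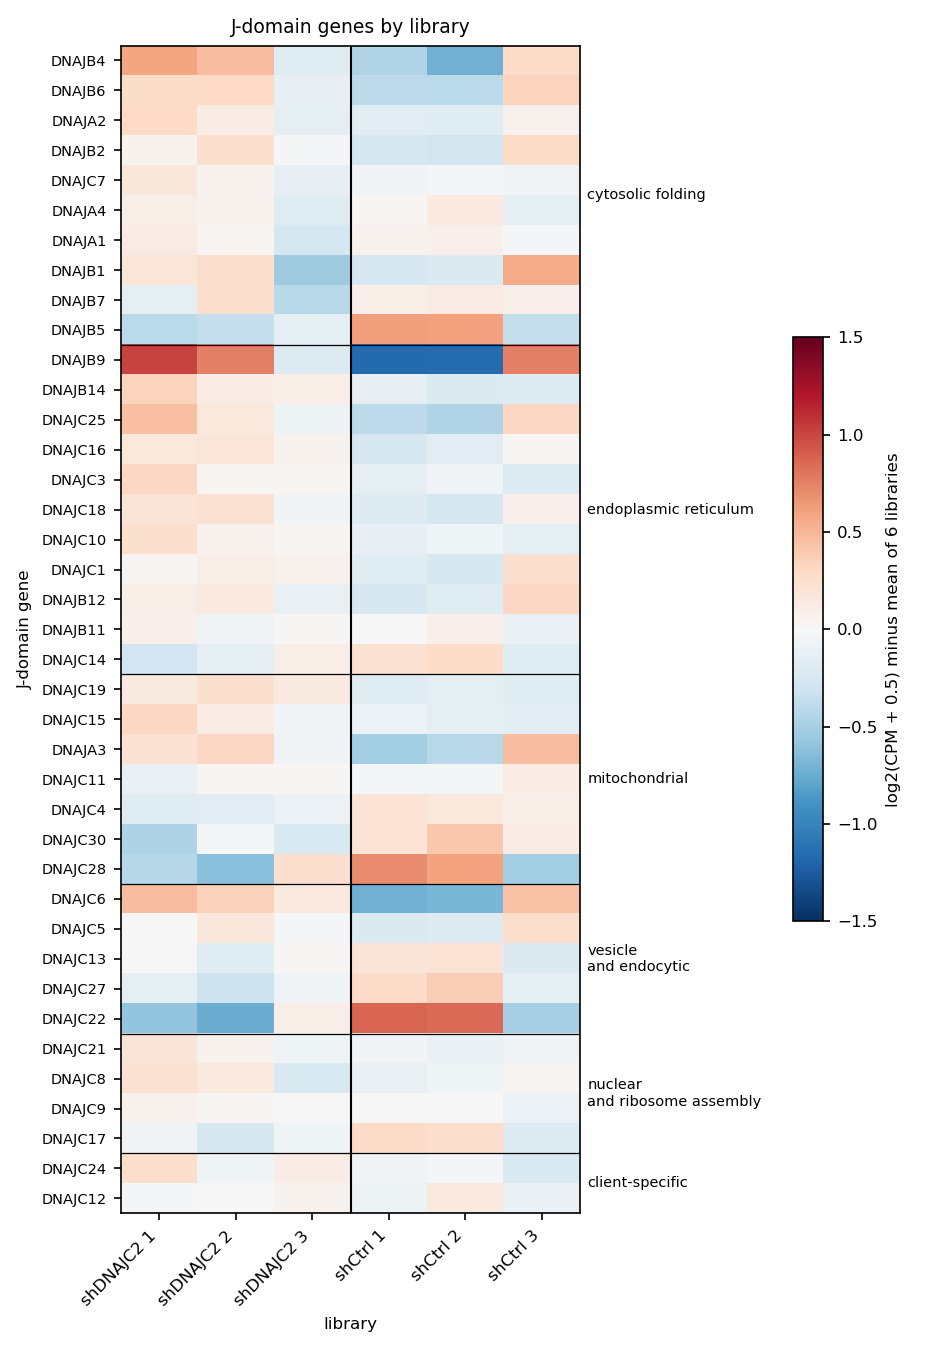
Level of the 39 tested J-domain genes (rows, grouped by the place of action) in each library (columns, shDNAJC2 left of shCtrl), as log2(CPM + 0.5) minus the mean of the 6 libraries. Red is above and blue below that mean. The shCtrl 3 column is coloured like shDNAJC2 1 and 2 in rows such as DNAJB9, DNAJC22 and DNAJC6, and like shCtrl 1 and 2 in rows such as DNAJC19 and DNAJB14.

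Members of the endoplasmic reticulum were mostly higher in shDNAJC2 cells by sign. Of the 11, all tested, 10 had a positive log2 fold change over 6 libraries, with a median of 0.26, against 47.7% positive over all genes tested. With the GC trend removed 9 of the 11 were positive, and DNAJB11 (-0.12) and DNAJC14 (-0.18) were negative. In that fit the median over all genes tested was 0.003, and their share of positive values was not counted. Before that removal none passed in edgeR (1 higher and 0 lower at an unadjusted p under 0.05, beside 4% and 7.33% of all genes). Without shCtrl 3 DNAJB9, DNAJB14, DNAJC16 and DNAJC25 rose and 0 fell, beside 17.8% and 17% of all genes. DNAJB14 (ENSG00000164031, chromosome 4, 99896248 to 99946726 on GRCh38), a membrane protein that faces the cytosol with its J-domain and helps clear misfolded membrane proteins, was at 44.3, 38.1 and 37.6 CPM in shDNAJC2 1, 2 and 3 and at 32.2, 30.1 and 30.5 CPM in shCtrl 1, 2 and 3. All 3 knockdown libraries lay above all 3 controls, shCtrl 3 included. Its log2 fold change was 0.37 ± 0.11 (SE, unadjusted p = 0.013, adjusted p = 0.43 in edgeR), and without shCtrl 3 it rose by 0.36 (adjusted p = 0.040 in edgeR). DNAJB14 has a GC content of 34.3%, and with each library's GC trend removed its log2 fold change was 0.19.

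DNAJB9 (ENSG00000128590, chromosome 7, 108569568 to 108574850 on GRCh38) had the highest positive fold change among the tested members, with and without shCtrl 3. It encodes a lumenal co-chaperone of HSPA5 that is induced by the unfolded protein response and restrains the stress sensor IRE1. Its level was 45.8, 38.1 and 19.3 CPM in shDNAJC2 1, 2 and 3 and 9.72, 9.78 and 38.2 CPM in shCtrl 1, 2 and 3. The knockdown libraries lay above shCtrl 1 and 2, and shCtrl 3 was level with shDNAJC2 2, so that the groups overlapped. Over 6 libraries the log2 fold change was 0.84 (95% interval -0.59 to 2.27), and without shCtrl 3 it rose by 1.82 (1.09 to 2.54, adjusted p = 0.0037 in edgeR). Exons of 2 antisense neighbours overlap its own, PNPLA8 over 99 bases and THAP5 over 183 bases. These neighbours had log2 fold changes of 0.52 and 0.46 over 6 libraries, and the counting was not stated to use strand.

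The other lumenal members moved less. DNAJC3, which restrains the eIF2 kinase PERK and serves HSPA5 in the lumen, was at 66.2, 54.4 and 54.4 CPM in shDNAJC2 libraries and at 48.0, 51.6 and 46.5 CPM in shCtrl libraries. DNAJC10, a disulfide reductase that works in degradation of misfolded proteins, was at 149, 132 and 129 CPM in shDNAJC2 libraries and at 116, 120 and 114 CPM in shCtrl libraries. Both separated the groups without passing, with log2 fold changes of 0.26 (95% interval -0.02 to 0.54) and 0.22 (-0.01 to 0.46), and both held GC contents under 40%, at 39.9% and 37.4%. With the GC trend removed the values were 0.14 and 0.073. DNAJB11, the secreted and lumenal HSPA5 partner with the second highest level per length of class B, was at 116, 106 and 111 CPM in shDNAJC2 libraries and at 109, 116 and 102 CPM in shCtrl libraries. The fold change was 0.02 on the log2 scale (95% interval -0.21 to 0.25), and its sign turned in 5 of the other settings tried.

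DNAJC25 was at 23.6, 19.3 and 16.2 CPM in shDNAJC2 libraries and at 13.0, 12.4 and 21.3 CPM in shCtrl 1, 2 and 3, and without shCtrl 3 it rose by 0.64 (adjusted p = 0.021 in edgeR). It shares 358 exonic bases with the read-through gene DNAJC25-GNG10, which was at 70.7, 59.0 and 57.2 CPM in shDNAJC2 libraries and at 64.4, 62.9 and 51.8 CPM in shCtrl libraries, so how reads were divided between them is uncertain. DNAJC16, chosen after its values were seen as the fourth riser of this group, was at 26.8, 27.4 and 25.0 CPM in shDNAJC2 libraries and at 20.0, 21.4 and 24.4 CPM in shCtrl libraries. For comparison, 15 other target genes of the unfolded protein response had a median log2 fold change of -0.06, with 3 that rose (EDEM1, HERPUD1 and XBP1) and 4 that fell (CALR, CRELD2, PDIA4 and SDF2L1) without shCtrl 3. Of all genes, 17.8% rose and 17% fell in that fit.

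Of the 7 mitochondrial members, some were higher and some lower with the knockdown. DNAJC19 (ENSG00000205981, chromosome 3, 180983709 to 180989774 on GRCh38) is an inner-membrane protein known from yeast to stimulate the import motor. Its level was 21.7, 23.3 and 21.7 CPM in shDNAJC2 1, 2 and 3 and 17.3, 17.8 and 17.3 CPM in shCtrl 1, 2 and 3. The groups did not overlap and the 3 controls lay close together, with means of 22.2 ± 0.912 and 17.5 ± 0.257 CPM (SD, n = 3 each). The log2 fold change was 0.35 ± 0.11 (SE, unadjusted p = 0.014, adjusted p = 0.43 in edgeR), and without shCtrl 3 it rose by 0.35 (adjusted p = 0.048 in edgeR). That call ended when the GC trend was also removed (0.25, adjusted p = 0.12 in edgeR). GENCODE lists 9 processed or other pseudogenes named after DNAJC19, and how reads shared with them were counted was not stated. DNAJC15, its close relative, chosen here after its values were seen, was at 46.8, 40.9 and 36.7 CPM in shDNAJC2 libraries and at 35.5, 34.0 and 33.8 CPM in shCtrl libraries.

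DNAJC30 (ENSG00000176410, chromosome 7, 73680969 to 73683453 on GRCh38), which serves the repair of respiratory complex I, was at 9.55, 13.0 and 11.3 CPM in shDNAJC2 1, 2 and 3 and at 15.4, 17.9 and 14.4 CPM in shCtrl 1, 2 and 3. All knockdown libraries lay below all controls. The log2 fold change was -0.49 ± 0.17 (SE, unadjusted p = 0.021, adjusted p = 0.43 in edgeR), and without shCtrl 3 it fell by 0.56 (adjusted p = 0.028 in edgeR). With the GC trend removed as well it fell by 0.48 (adjusted p = 0.034 in edgeR). Its exons share 359 bases with the antisense gene BUD23, which was at 82.4, 76.3 and 70.2 CPM in shDNAJC2 libraries and at 55.3, 57.9 and 85.3 CPM in shCtrl libraries, the other direction against shCtrl 1 and 2.

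DNAJC4 was at 9.24, 9.27 and 9.87 CPM in shDNAJC2 libraries and at 12.2, 11.8 and 11.2 CPM in shCtrl libraries, without overlap. Its log2 fold change was -0.31 (unadjusted p = 0.046, adjusted p = 0.43 in edgeR), and -0.14 with the GC trend removed, at a GC content of 58.4%. It shares 297 exonic bases with NUDT22 on the same strand, whose log2 fold change was -0.23. DNAJC28 was near the floor, with 4, 2 and 16 counts in shDNAJC2 1, 2 and 3 and 26, 25 and 4 counts in shCtrl 1, 2 and 3. It passed the filter through the higher libraries. Over 6 libraries its log2 fold change was -1.08 (95% interval -2.95 to 0.79). Without shCtrl 3 DNAJC28 fell by 1.497 (adjusted p = 0.048 in edgeR), with a 95% interval from -2.64 to -0.35. This call ended with the GC trend removed as well (adjusted p = 0.053 in edgeR).

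DNAJA3, the mitochondrial class A member and partner of the matrix HSP70 HSPA9, was at 122, 131 and 102 CPM in shDNAJC2 1, 2 and 3 and at 72.9, 78.2 and 144 CPM in shCtrl 1, 2 and 3. The control shCtrl 3 was the highest library of all 6. Over 6 libraries the log2 fold change was 0.26 (95% interval -0.39 to 0.91), and without shCtrl 3 it rose by 0.65 (0.37 to 0.93, adjusted p = 0.0053 in edgeR). HSPA9 was at 617, 570 and 436 CPM in shDNAJC2 libraries and at 316, 303 and 561 CPM in shCtrl 1, 2 and 3, with shCtrl 3 among the knockdown values.

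**Figure D3:**
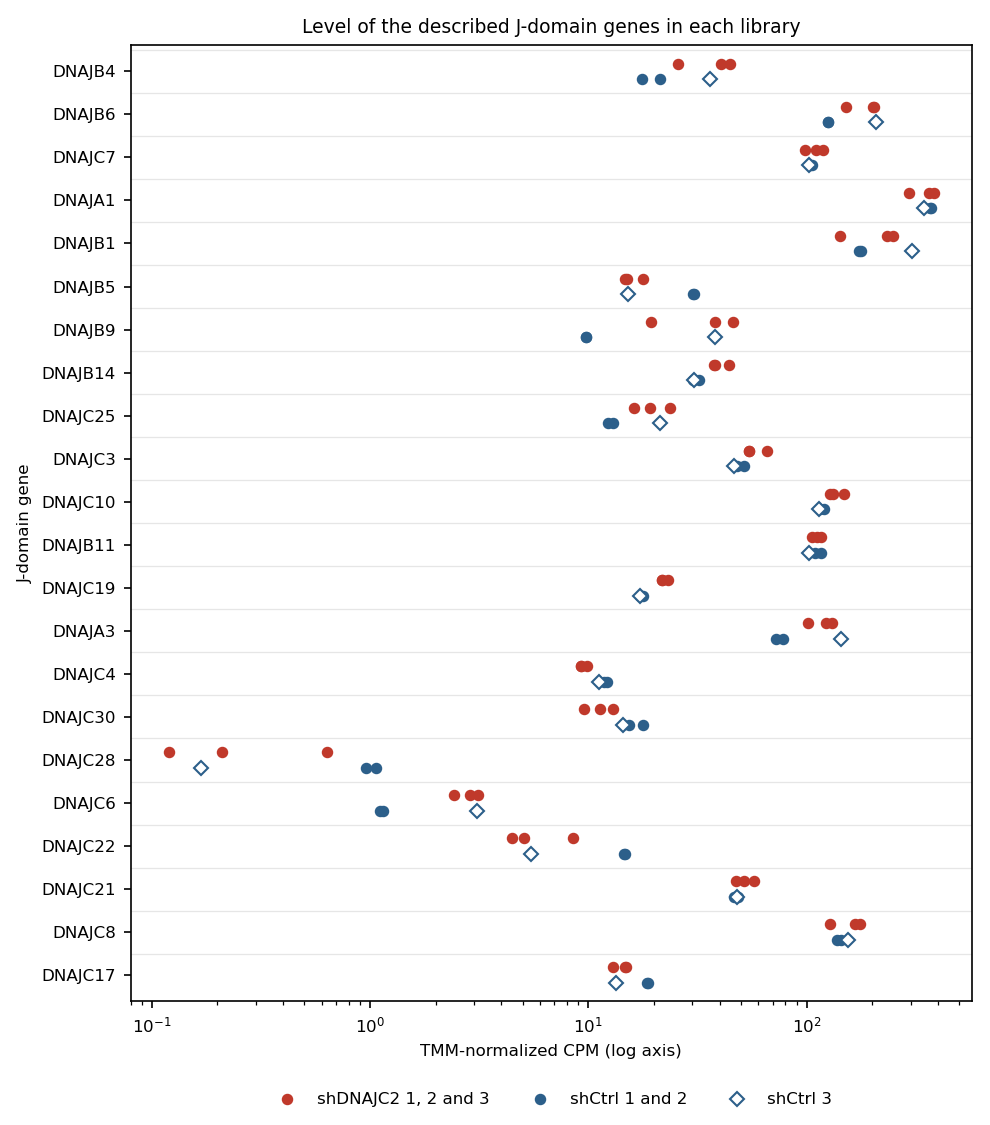
Level of the 22 described J-domain genes in each library, in CPM on a log axis, with shDNAJC2 (red circles) above shCtrl (blue) in each row. Open diamonds are shCtrl 3. DNAJC19, DNAJB14, DNAJC30 and DNAJC4 show no overlap between the groups, while in DNAJB9, DNAJC6, DNAJC22 and DNAJB5 the open diamond lies among or beside the red points.

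The 12 cytosolic folding members comprised 10 that were tested, and they showed no common direction over 6 libraries (5 positive and 5 negative, median log2 fold change 0.03). DNAJA1, the most abundant member per length, was at 383, 362 and 294 CPM in shDNAJC2 libraries and at 370, 372 and 345 CPM in shCtrl libraries, and its log2 fold change was -0.06 (95% interval -0.38 to 0.26). DNAJB1, the classical heat-inducible HSP40 that takes part in disaggregation with HSP70, was at 235, 248 and 143 CPM in shDNAJC2 1, 2 and 3 and at 174, 177 and 305 CPM in shCtrl 1, 2 and 3. Its highest value was in shCtrl 3 and its lowest in shDNAJC2 3. Its log2 fold change of -0.07 (95% interval -0.77 to 0.63) became 0.25 without shCtrl 3 and did not pass in either fit. The inducible HSP70 gene HSPA1B followed the same order at both ends, at 353, 446 and 179 CPM in shDNAJC2 1, 2 and 3 and at 203, 215 and 809 CPM in shCtrl 1, 2 and 3. It was chosen after its values were seen, and it has a near-identical copy, HSPA1A. The 15 listed heat shock factor 1 targets outside the family, HSPA1B included, had a median log2 fold change of 0.05 over 6 libraries. Without shCtrl 3, HSPD1 rose and CRYAB and HSPB1 fell, beside 17.8% and 17% of all genes. HSPB1 was at 98.3, 111 and 112 CPM in shDNAJC2 libraries and at 277, 287 and 138 CPM in shCtrl libraries.

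DNAJB4 and DNAJB6 were higher in shDNAJC2 than in shCtrl 1 and 2. DNAJB4, a close relative of DNAJB1, was at 44.6, 40.6 and 25.9 CPM in shDNAJC2 1, 2 and 3 and at 21.3, 17.7 and 36.1 CPM in shCtrl 1, 2 and 3, and without shCtrl 3 it rose by 0.93 (adjusted p = 0.013 in edgeR). DNAJB6, which holds back aggregation of polyglutamine proteins, was at 201, 203 and 152 CPM in shDNAJC2 1, 2 and 3 and at 126, 125 and 209 CPM in shCtrl 1, 2 and 3, and without shCtrl 3 it rose by 0.56 (adjusted p = 0.014 in edgeR). In both genes shCtrl 3 lay with the knockdown libraries. Over 6 libraries the log2 fold changes were 0.56 (95% interval -0.18 to 1.31) for DNAJB4 and 0.27 (-0.29 to 0.83) for DNAJB6. DNAJC7, which carries tetratricopeptide repeats and binds HSP70 and HSP90, stayed within 98.2 to 120 CPM in shDNAJC2 libraries and 103 to 106 CPM in shCtrl libraries (log2 fold change 0.07, 95% interval -0.17 to 0.32).

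DNAJB5 (ENSG00000137094, chromosome 9, 34989641 to 34998900 on GRCh38), another relative of DNAJB1, went the other way. Its level was 14.7, 15.1 and 17.7 CPM in shDNAJC2 1, 2 and 3 and 30.5, 30.2 and 15.2 CPM in shCtrl 1, 2 and 3. The 3 knockdown libraries and shCtrl 3 lay together at about the same level, below shCtrl 1 and 2. The log2 fold change was -0.68 (95% interval -1.33 to -0.02, unadjusted p = 0.044, adjusted p = 0.43 in edgeR), and without shCtrl 3 it fell by 0.93 (adjusted p = 0.0012 in edgeR). This was the smallest adjusted p of the tested members in that fit.

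Heat shock factor 1 sites are a known feature of some HSP40 promoters. The element TTC, any 2 bases, GAA, any 2 bases, TTC was searched on both strands in RefSeq promoter windows of GRCh38.p14, from 250 bases before to 50 bases after a start site. It was found in 172 of 35116 windows (0.490%), and in 2 of the 51 windows of the members, those of DNAJA1 and DNAJB6. Both windows are shown on the gene's strand because only DNAJB6 rose without shCtrl 3. Over 6 libraries neither gene passed. The match is in capitals.
DNAJA1, chr9:33025023-33025322, plus strand: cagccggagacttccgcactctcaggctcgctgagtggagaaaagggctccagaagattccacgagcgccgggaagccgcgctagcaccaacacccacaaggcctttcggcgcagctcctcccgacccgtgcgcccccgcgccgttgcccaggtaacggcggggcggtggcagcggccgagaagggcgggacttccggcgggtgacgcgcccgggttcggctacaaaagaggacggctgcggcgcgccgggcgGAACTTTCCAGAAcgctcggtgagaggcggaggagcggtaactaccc
DNAJB6, chr7:157336754-157337053, plus strand: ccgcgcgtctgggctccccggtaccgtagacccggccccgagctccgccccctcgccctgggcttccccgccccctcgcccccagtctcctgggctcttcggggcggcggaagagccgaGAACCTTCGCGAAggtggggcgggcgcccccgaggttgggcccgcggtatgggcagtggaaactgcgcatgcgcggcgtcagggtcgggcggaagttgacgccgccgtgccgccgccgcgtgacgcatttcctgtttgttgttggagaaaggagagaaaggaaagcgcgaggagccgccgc
A match is only a run of letters in this window. Only exact copies of each element were counted. A window without a match, such as those of DNAJB1, is therefore not shown to lack such sites. The endoplasmic reticulum stress element, CCAAT and CCACG with any 9 bases between, was in 27 of the 35116 windows (0.0769%) and in 0 of the 51. The amino acid response element TGATGNAA was in 3.62% of all windows and in 1 of the 51, at DNAJA4.

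Of 7 vesicle and endocytic members 5 were tested, and without shCtrl 3 DNAJC6 rose and DNAJC22 fell. DNAJC22 (ENSG00000178401, chromosome 12, 49346917 to 49357546 on GRCh38), a membrane protein whose Drosophila relative acts in endocytosis, was at 5.06, 4.49 and 8.47 CPM in shDNAJC2 1, 2 and 3 and at 14.8, 14.6 and 5.44 CPM in shCtrl 1, 2 and 3. The value of shCtrl 3 lay between those of the knockdown libraries. Over 6 libraries it differed by -0.94 on the log2 scale (95% interval -1.97 to 0.08), and without shCtrl 3 it fell by 1.27 (adjusted p = 0.0053 in edgeR). DNAJC6, auxilin, which recruits HSPA8 to strip clathrin from vesicles and is best known from neurons, was at 3.13, 2.87 and 2.43 CPM in shDNAJC2 1, 2 and 3 and at 1.11, 1.15 and 3.10 CPM in shCtrl 1, 2 and 3. Without shCtrl 3 it rose by 1.31 (0.76 to 1.87, adjusted p = 0.0048 in edgeR), and over 6 libraries its log2 fold change was 0.66 (-0.38 to 1.69). GAK, the widely expressed relative of auxilin whose symbol is outside the rule, was at 80.6, 103 and 95.8 CPM in shDNAJC2 libraries and at 86.9, 87.2 and 126 CPM in shCtrl libraries.

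Nuclear and ribosome assembly members differed little. DNAJC21, which is known from yeast to act in late maturation of the large ribosomal subunit and is closest in role to DNAJC2, was at 57.2, 51.7 and 47.7 CPM in shDNAJC2 1, 2 and 3 and at 48.4, 46.4 and 48.0 CPM in shCtrl 1, 2 and 3. The groups overlapped, and the log2 fold change was 0.13 (95% interval -0.12 to 0.38). DNAJC8 was at 175, 166 and 128 CPM in shDNAJC2 libraries and at 138, 144 and 155 CPM in shCtrl libraries, or 0.10 on the log2 scale (-0.23 to 0.44). DNAJC17, which is linked to splicing, was at 14.8, 12.9 and 14.7 CPM in shDNAJC2 1, 2 and 3 and at 18.9, 18.6 and 13.4 CPM in shCtrl 1, 2 and 3. Over 6 libraries its log2 fold change was -0.26 (95% interval -0.67 to 0.14). DNAJC17 fell by 0.40 without shCtrl 3 (adjusted p = 0.040 in edgeR), and this call ended with the GC trend removed as well (adjusted p = 0.093 in edgeR). Its exons share 1151 bases with the antisense gene GCHFR. DNAJC9, a histone chaperone chosen after its values were seen, separated the groups by a small margin, at 119 to 125 CPM in shDNAJC2 libraries and 112 to 119 CPM in shCtrl libraries, with a log2 fold change of 0.06 (-0.15 to 0.27). The members tied to 1 client, DNAJC24 of diphthamide synthesis and DNAJC12 of the aromatic amino acid hydroxylases, had log2 fold changes of 0.21 and 0.02 and did not pass in either fit. They are named after their values were seen.

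**Figure D4:**
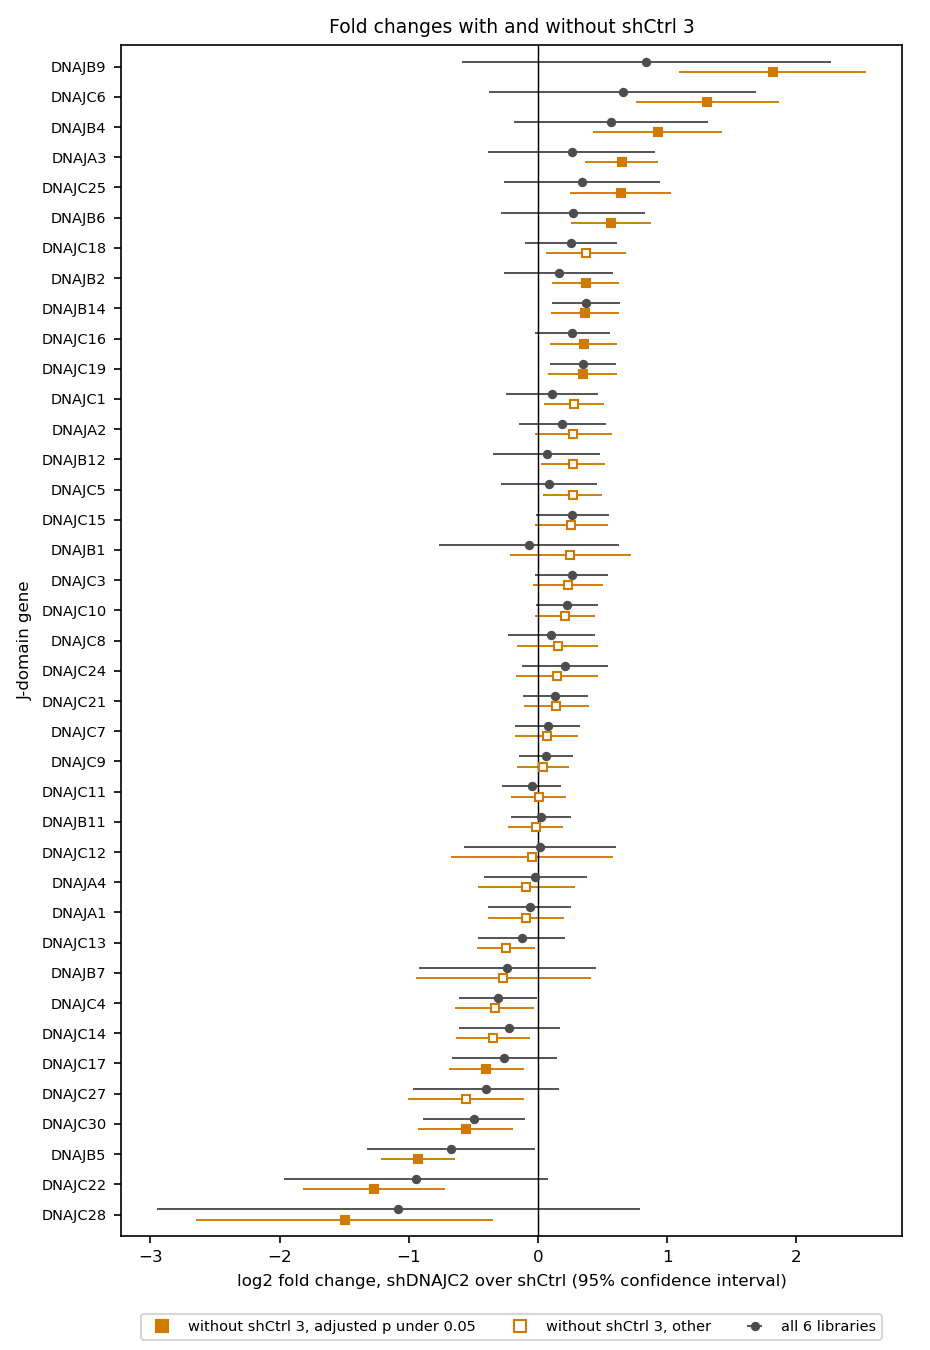
Log2 fold change of shDNAJC2 over shCtrl for the 39 tested J-domain genes, with 95% confidence intervals, over all 6 libraries (grey circles) and without shCtrl 3 (orange squares, filled where the adjusted p is under 0.05). DNAJB9 at the top is at 0.84 over 6 libraries and at 1.82 without shCtrl 3, while DNAJB14 and DNAJC19 keep nearly the same value in both fits.

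Summed by class, the members of class B varied most between libraries. Class B summed to 842, 840 and 633 CPM in shDNAJC2 1, 2 and 3 and to 615, 621 and 900 CPM in shCtrl 1, 2 and 3. Class A summed to 618, 593 and 479 CPM in shDNAJC2 libraries and to 526, 533 and 585 CPM in shCtrl libraries. Class C summed to 1320, 1271 and 1209 CPM in shDNAJC2 libraries and to 1199, 1220 and 1218 CPM in shCtrl libraries. In every class the groups overlapped. In classes A and B shDNAJC2 3 lay below the other knockdown libraries and shCtrl 3 above the other controls. In class C shDNAJC2 3 lay below shCtrl 2 and shCtrl 3. The 17 tested members outside the naming rule had log2 fold changes between -0.40 and 0.27 over 6 libraries.

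HSP70 genes and exchange factors complete the J-domain cycle. Of 12 HSP70 genes 11 were tested and 0 passed in edgeR (2 higher and 1 lower at an unadjusted p under 0.05, median log2 fold change 0.05), and of all 12 tested without shCtrl 3, HSPA6, HSPA9, HSPA13 and HSPA14 rose and HSPA2 fell. HSPA14, the partner of DNAJC2, was at 36.4, 33.2 and 33.3 CPM in shDNAJC2 libraries and at 25.5, 26.9 and 28.2 CPM in shCtrl libraries, without overlap (log2 fold change 0.35 ± 0.10, SE, unadjusted p = 0.012, adjusted p = 0.43 in edgeR). HSPA2 also separated the groups, at 11.3, 10.1 and 13.9 CPM in shDNAJC2 libraries and at 22.8, 24.5 and 14.9 CPM in shCtrl 1, 2 and 3 (log2 fold change -0.82 ± 0.23, SE, adjusted p = 0.43 in edgeR). Of 13 exchange factors, which release ADP so that the client can leave, 0 passed in edgeR (2 higher and 0 lower at an unadjusted p under 0.05, median 0.14), and BAG2, BAG5, GRPEL1 and GRPEL2 rose and 0 fell without shCtrl 3. For both lists, the shares over all genes tested were 4% higher and 7.33% lower at an unadjusted p under 0.05 in edgeR. Without shCtrl 3, 17.8% of all genes rose and 17% fell. BAG5 was at 62.4, 57.2 and 53.3 CPM in shDNAJC2 libraries and at 43.9, 44.0 and 50.8 CPM in shCtrl libraries. BAG2 was at 71.2, 63.7 and 56.1 CPM in shDNAJC2 libraries and at 46.1, 46.2 and 55.9 CPM in shCtrl libraries. SEC63, a J-domain gene under another symbol and the translocon partner of HSPA5, was at 159, 138 and 119 CPM in shDNAJC2 libraries and at 83.8, 83.7 and 132 CPM in shCtrl libraries, and without shCtrl 3 it rose by 0.73 (adjusted p = 0.0039 in edgeR). Members of these counts other than BAG2, BAG5, HSPA2, HSPA14 and SEC63 are named after their values were seen.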

How the data were processed

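Whole-number counts for each gene of 6 ACHN mRNA libraries, as deposited by the authors, differ in their totals and were taken as unnormalized. The build was GRCh38, per the submitters' processing notes. No aligner, counter, annotation or use of strand is named: each is not given in the sources used here. Limits from a count of 0 cover counting error alone, since reads lacked molecular identifiers.

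The test was from edgeR 4.0.16, run in R 4.3.3 (quasi-likelihood F test, two-sided, TMM, filterByExpr, Benjamini-Hochberg over all genes tested). The log2 fold change is shDNAJC2 over shCtrl. Alternatives used DESeq2 1.42.0, limma-voom (limma 3.58.1), other size factors and filters, a replicate block and leaving out each library. Removal of each library's GC trend was added after seeing the data. Scripts were tested on simulated data. Places of action came from hand-written lists. Coordinates and transcripts are from GENCODE 29, with GC content from the longest transcript. Of the members 39 had a RefSeq promoter window.

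Members and lists were chosen with earlier results of these data known. Named were members with an unadjusted p under 0.05 and no overlap, up to 6 risers and 6 fallers without shCtrl 3, the 2 highest per length in each class, and DNAJB1, DNAJB9, DNAJB11, DNAJC3, DNAJC10 and DNAJC21. From other lists it was the 2 smallest p, though some list genes are not reported here.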

Additional observations from a re-analysis of the deposited data

How the results depend on the processing

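The count of J-domain genes called higher was 0 over all 6 libraries and 0 to 10 when 1 library was left out, and the count called lower was 0 and 0 to 5. The highest values came without shCtrl 3, and any other omission gave 0. Without shCtrl 3 and with the GC trend removed, 12 were called higher and 5 lower (30.8% and 12.8% of 39, against 20.1% and 17.2% of all genes). Other size factors, other filters, DESeq2, limma-voom, the GC trend removed alone and an adjusted p under 0.01 left both counts at 0. DESeq2 gave no adjusted p for DNAJC6, DNAJC22 and DNAJC28. The log2 fold change of DNAJC2 was -0.81 to -0.60 with 1 library left out. It passed by DESeq2 (-0.72, adjusted p = 0.04997), without shCtrl 3 (-0.65, adjusted p = 0.0080 in edgeR) and without shCtrl 3 and with the GC trend removed (-0.71, adjusted p = 0.0062 in edgeR).

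Deviations from the group mean correlated at -0.38, -0.52 and -0.66 for same-numbered libraries, and at -0.58 to 0.67 for libraries with unlike numbers. These deviations sum to 0 within a group, so a library that stands apart can set the signs. They cannot decide whether replicate numbers pair the libraries. With the replicate block, 0 members were called higher and 0 lower, and DNAJC2 had a log2 fold change of -0.74 (adjusted p = 0.71 in edgeR).

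Signs turned for 3 described genes near 0. DNAJA1 lay between -0.14 and 0.058 and DNAJB1 between -0.21 and 0.25 with 1 library left out. DNAJB1 was at 0.0059 with the GC trend removed and at 0.31 without shCtrl 3 as well. DNAJB11 lay between -0.017 and 0.079 with 1 library left out, with -0.0083 without shDNAJC2 1, and was at -7.9e-06 with upper-quartile size factors, -0.12 with the GC trend removed and -0.12 without shCtrl 3 as well. The cause was not tested. DNAJB9 ranged from 0.53 to 1.82, DNAJC22 from -1.27 to -0.72 and DNAJC6 from 0.42 to 1.31 with 1 library left out, so that shCtrl 3 decides their calls. Depth limits DNAJC28 and the 4 untested members.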
